A study of Mus musculus with 13 samples.

Results

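Transcripts of 9 ubiquitin ligases linked to muscle atrophy, Fbxo32, Trim63, Fbxo30, Fbxo21, Fbxo31, Fbxl22, Nedd4, Trim32 and Stub1, were followed in the gastrocnemius muscle of obese mice. They were taken as listed rows of a table of normalized counts that holds 21868 genes, and all 9 were measured. The 13 mice were male C57BL/6N, entered the study at 7 weeks of age, were fed a diet with 60 kcal% fat for 15 to 17 weeks and were then moved to standard chow, so that the controls also carried the obesity and the change of diet. For 3 weeks, 5 mice (mice 1 to 5) received phosphate-buffered saline (vehicle). Another 5 (mice 13 to 17) received semaglutide, an agonist of the receptor for glucagon-like peptide 1, at 30 nM/kg/day intraperitoneally. The other 3 (mice 19, 21 and 22) received the same dose of semaglutide while drinking water that contained 0.114 g/mL of a ketone ester. Sample labels also name a placebo for the vehicle and the semaglutide groups, and what it was is not stated. The study asked whether the ketone ester alters the loss of muscle that accompanies semaglutide, and each group was compared with the other two for these ligases.

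Ubiquitin ligases, or E3 enzymes, choose the proteins that are tagged with ubiquitin and sent to the proteasome. F-box proteins are the substrate-binding subunits of SCF ligases, which are assembled on Skp1 and the cullin Cul1, whereas RING, HECT and U-box ligases bring substrate and ubiquitin together in other ways. In wasting muscle the genes of atrogin-1 (Fbxo32) and MuRF1 (Trim63) are classically switched on by FoxO transcription factors, which the insulin and IGF1 kinase Akt restrains, and MuRF1 acts on proteins of the thick filament.

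The 13 libraries held between 15319471 and 23498162 reads on genes. Semaglutide mouse 13 stood apart from its group. On the first principal component of all genes tested, which held 38.1% of the variance, it lay at -9.12, against 31.8 to 52.5 in the rest of that group and -24.5 to -12.8 under vehicle, with semaglutide + ketone ester–treated mice at -25.6 to -15.8. The differences of the ligases and the counts over gene lists are therefore given with and without it, and other genes with all mice unless stated. Mouse 13 was singled out from these same data, and its label gives no reason to leave it out. The tissue was skeletal muscle, since all 10 skeletal myofibre markers were detected in every group, although these markers cannot tell the gastrocnemius from other muscles. Their summed normalized counts were 2556611 to 3063537 under vehicle, 1562282 to 2773364 under semaglutide, mouse 13 being the highest, and 3218661 to 3837404 under semaglutide + ketone ester. Group differences were tested with limma on log2(normalized count + 1) for the 12303 genes with a mean of at least 10, and "passed" means a Benjamini-Hochberg adjusted p under 0.05 over all of these. Semaglutide-treated mice were higher than vehicle-treated mice in 1459 genes and lower in 1625, and semaglutide + ketone ester–treated mice were higher than semaglutide-treated mice in 1118 and lower in 1144. With columns rescaled to equal totals these splits became 3262 to 929 and 611 to 3587. Because this is whole muscle, fewer cells of a type and less RNA per cell cannot be told apart. The labels number the mice but name no litter or cage, and the p-values measure the spread between these animals.

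The upstream sequence is shown for 3 of the genes as examples, Trim63 and Fbxo31 being high, and Fbxl22 low, in semaglutide mice 15 to 17. Fbxo21 and Nedd4 were also high in those mice, and their stretches are not shown. Each run is the 250 bases before the transcription start in RefSeq (GRCm38.p6), read 5′ to 3′ on the strand of the gene. Capitals mark matches, on either strand, to 5 short motifs, namely GTAAACA (the core bound by FoxO factors), TGTTCT (a half-site of the glucocorticoid receptor), CAGCTG (an E-box of muscle transcription factors), TATAAA (bound by TBP near many start sites) and GGGCGG (bound by Sp1). The stretches lie at chr4:134314870-134315119 on the plus strand for Trim63, at chr8:121578807-121579056 on the minus strand for Fbxo31 and at chr9:66514594-66514843 on the minus strand for Fbxl22.
Trim63: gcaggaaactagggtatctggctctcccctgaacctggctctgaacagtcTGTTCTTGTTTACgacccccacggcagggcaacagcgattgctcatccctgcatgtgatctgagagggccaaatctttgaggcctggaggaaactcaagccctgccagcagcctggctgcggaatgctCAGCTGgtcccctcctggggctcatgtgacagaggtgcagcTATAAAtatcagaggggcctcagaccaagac
Fbxo31: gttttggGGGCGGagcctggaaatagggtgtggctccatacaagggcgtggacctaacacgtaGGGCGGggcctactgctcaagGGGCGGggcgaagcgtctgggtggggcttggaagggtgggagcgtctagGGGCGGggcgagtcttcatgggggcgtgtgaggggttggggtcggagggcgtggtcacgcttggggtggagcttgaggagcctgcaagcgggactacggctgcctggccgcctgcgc
Fbxl22: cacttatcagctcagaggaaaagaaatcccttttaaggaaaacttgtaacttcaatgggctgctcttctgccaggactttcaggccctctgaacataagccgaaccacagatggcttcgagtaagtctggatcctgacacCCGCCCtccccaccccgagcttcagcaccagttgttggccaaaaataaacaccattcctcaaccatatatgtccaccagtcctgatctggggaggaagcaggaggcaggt

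In Trim63, TGTTCT at -200 to -195 directly adjoined the reverse complement of GTAAACA at -194 to -188, followed by CAGCTG at -72 to -67 and TATAAA at -31 to -26. Over all 32851 promoter windows of this length, GTAAACA was found in 3.17%, TGTTCT in 16.1%, CAGCTG in 13.0%, TATAAA in 12.4% and GGGCGG in 32.7%. The Fbxo31 stretch held 4 copies of GGGCGG and none of the other motifs, and that of Fbxl22 held 1 copy of GGGCGG, on the reverse strand. Among the 8 members other than Fbxo32, whose promoter was not analysed here, Trim63 alone held GTAAACA in this window. A match describes letters and is not evidence of binding.

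Per kilobase of exon, the vehicle-treated muscle held 2 tiers of ligase transcripts. Trim63 was at 1176 ± 292 normalized counts per kilobase (SD, n = 5) and Fbxo32 at 1005 ± 47.4, with overlapping ranges, followed by the HECT ligase Nedd4 at 796 ± 41.8. Fbxo31 at 570 ± 44.7 and the U-box ligase Stub1 at 548 ± 28.7 overlapped each other and lay below Nedd4 in all mice. The second tier was far lower, with Trim32 at 58.6 ± 6.59, Fbxo21 at 55.3 ± 9.74 and Fbxo30 at 48.9 ± 0.578 normalized counts per kilobase, whose ranges overlapped. Fbxl22 was lowest at 15.0 ± 4.71, below all others in every vehicle-treated mouse. Under semaglutide Fbxo32 and Trim63 led the order at 3046 ± 1942 and 3035 ± 1897 per kilobase (SD, n = 5), or 3755 ± 1295 and 3688 ± 1399 without mouse 13 (n = 4). In mouse 13 itself they were at 209 and 424, below Nedd4 at 836, Stub1 at 780 and Fbxo31 at 617. Under semaglutide + ketone ester the leading levels were those of Trim63 at 870 ± 198 and Nedd4 at 849 ± 40.1 (SD, n = 3), with Fbxo32 at 609 ± 140.

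**Figure D1:**
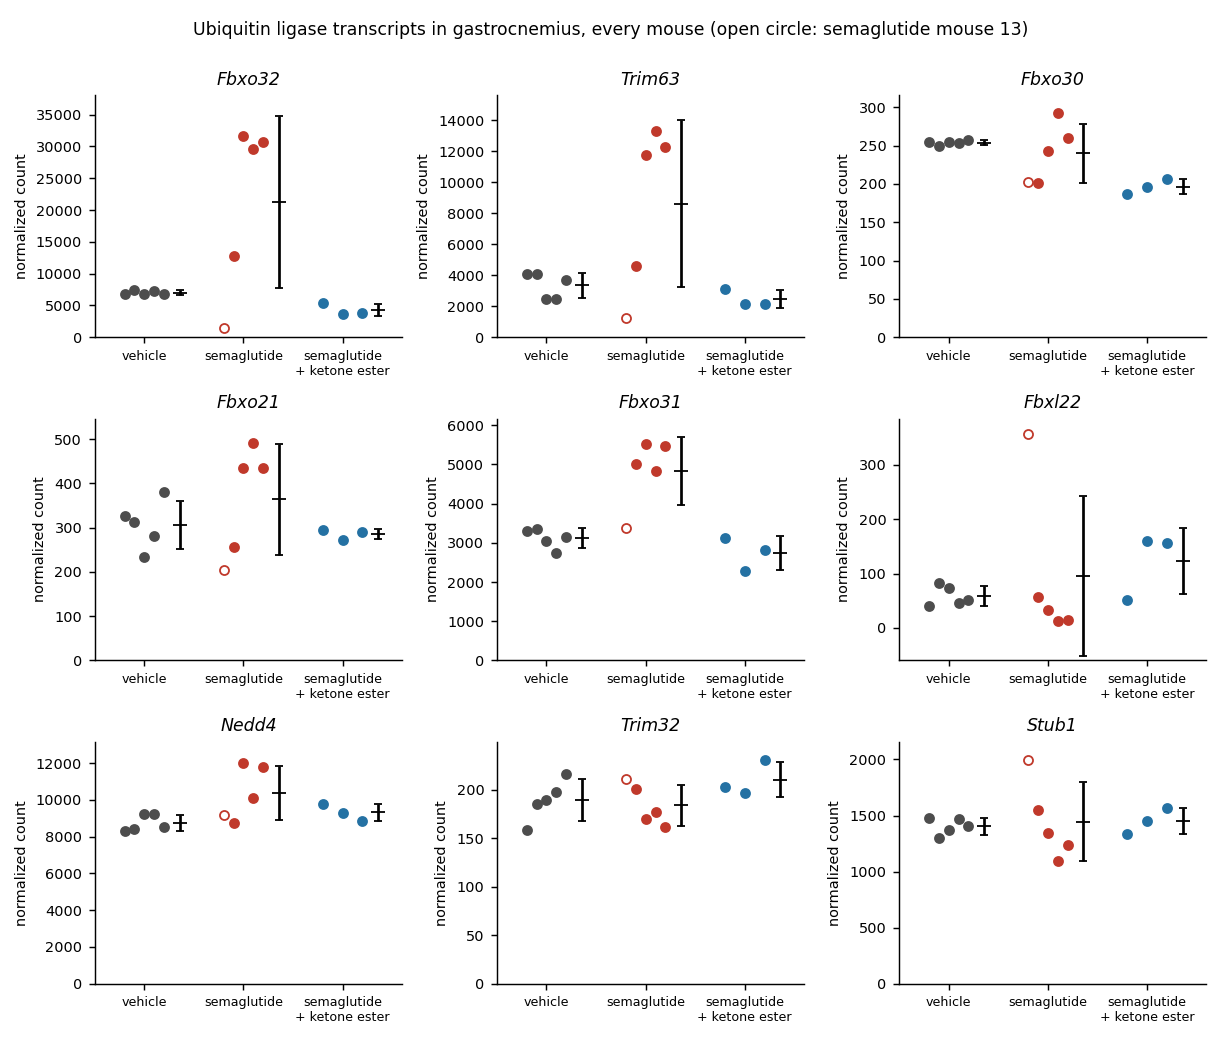
Normalized counts (y axis, linear) of the 9 ligases in every mouse by group (x axis), with the group mean ± SD as a bar at the right of each group; the open circle is semaglutide mouse 13. Fbxo32 and Trim63 reached their highest levels in semaglutide mice 15 to 17, and mouse 13 was the lowest of all 13 mice for both and the highest for Fbxl22 and Stub1.

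Fbxo31 was the ligase that passed the test in both comparisons with the semaglutide group. It encodes an F-box protein known for directing cyclin D1 to degradation, and lies at chr8:121549440-121578806 (GRCm38, as for all genes here). Its normalized counts in vehicle mice 1 to 5 were 3313, 3362, 3048, 2748 and 3145. In semaglutide mice 13 to 17 they were 3385, 5009, 5523, 4824 and 5474, and in semaglutide + ketone ester mice 19, 21 and 22 they were 3135, 2277 and 2812. All semaglutide-treated mice lay above all mice of the other groups, although mouse 13 exceeded the highest vehicle-treated mouse only narrowly. The log2 difference between semaglutide and vehicle was 0.61 (SE 0.14, 95% interval 0.31 to 0.92, limma adjusted p = 0.0083), and that between semaglutide + ketone ester and semaglutide was -0.81 (SE 0.16, interval -1.16 to -0.46, adjusted p = 0.0063). Without mouse 13 the differences were 0.74 and -0.94, and each passed in all 13 fits that left out a mouse. The 2 comparisons share the semaglutide-treated mice, so their opposite signs are not independent. Semaglutide + ketone ester and vehicle overlapped and differed by -0.20 (interval -0.54 to 0.15, limma adjusted p = 0.766). All exons of Fbxo31 lie inside Gm20388 on the opposite strand, which was counted at a mean of 32.6 normalized counts.

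Thus 1 of 9 members passed between semaglutide and vehicle, while 25.1% of all genes tested did so, 11.9% being higher and 13.2% lower. Between semaglutide + ketone ester and semaglutide 1 of 9 passed, against 18.4% of all genes, 9.09% higher and 9.3% lower. Values without any overlap between groups were likewise found for 1 of 9 members in each of these comparisons, against 14.7% and 20.1% of genes. At an unadjusted p under 0.05 the members numbered 2 and 3, against 38.6% and 34.3% of genes.

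Fbxo32 encodes atrogin-1, the F-box protein that binds MyoD and the initiation factor eIF3f, and lies at chr15:58175879-58214932. Vehicle mice 1 to 5 had 6730, 7444, 6794, 7287 and 6793 normalized counts, a narrow range. Semaglutide mice 13 to 17 had 1460, 12699, 31652, 29676 and 30758, and semaglutide + ketone ester mice had 5372, 3567 and 3808. Mice 14 to 17 were 1.81 to 4.52 times the vehicle mean, whereas mouse 13 was at 0.208 of it, below every other animal. With every mouse included, semaglutide differed from vehicle by 1.00 (SE 0.69, interval -0.50 to 2.5, limma adjusted p = 0.315), and semaglutide + ketone ester from semaglutide by -1.74 (SE 0.80, interval -3.48 to -0.01, adjusted p = 0.144). Without mouse 13 the differences were 1.81 (SE 0.25, adjusted p = 2.7e-04) and -2.56 (SE 0.28, adjusted p = 1.4e-04, limma), and neither pair of groups overlapped.

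Trim63 encodes the RING ligase MuRF1 and lies at chr4:134315120-134329629, just downstream of the promoter printed above. Its normalized counts were 4057, 4067, 2433, 2462 and 3694 in vehicle mice 1 to 5. In semaglutide mice 13 to 17 they were 1206, 4600, 11735, 13333 and 12256, and in mice 19, 21 and 22 with the ketone ester they were 3121, 2145 and 2151. As for Fbxo32, mouse 13 was the lowest of the semaglutide group and mouse 14 the next, and mice 15 to 17 lay far above every mouse of the other groups. Over all mice the log2 differences were 0.97 (SE 0.56, interval -0.24 to 2.19, limma adjusted p = 0.223) between semaglutide and vehicle and -1.39 (SE 0.64, interval -2.79 to 0.01, adjusted p = 0.148) between semaglutide + ketone ester and semaglutide. Without mouse 13 they were 1.57 (SE 0.31, adjusted p = 0.0025) and -1.99 (SE 0.35, adjusted p = 0.0017, limma). Here too this was the only 1 of the 13 fits leaving out a mouse that passed, in each comparison. The limma adjusted p reached 0.410 and 0.304 with other mice left out.

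The ratio of Fbxo32 to Trim63 normalized counts was 1.66 to 2.96 in vehicle-treated mice, 2.23 to 2.76 in semaglutide mice 14 to 17, 1.21 in mouse 13 and, with the ketone ester, 1.66 to 1.77. Fbxo32 alone made up 27.3% to 30.4% of the summed counts of the 9 members under vehicle, 38.1% to 50.1% in mice 14 to 17, 8.03% in mouse 13 and 18.2% to 22.9% with the ketone ester.

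In mouse 13, markers of another cell type moved as well. The 5 blood cell markers (globins and Alas2) summed to 3148 normalized counts there, the highest of a semaglutide group that began at 50.5, against 1356 to 2291 under vehicle and 2849 to 5558 under semaglutide + ketone ester, and none was at 0 in any group. Reads of mitochondrially encoded genes, by contrast, were 11.4% of its library, beside 12.3% to 13.7% in mice 14 to 17, 17.2% to 19.9% under vehicle and 15.6% to 17.0% with the ketone ester. The part of either in the ligase values was not tested.

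**Figure D2:**
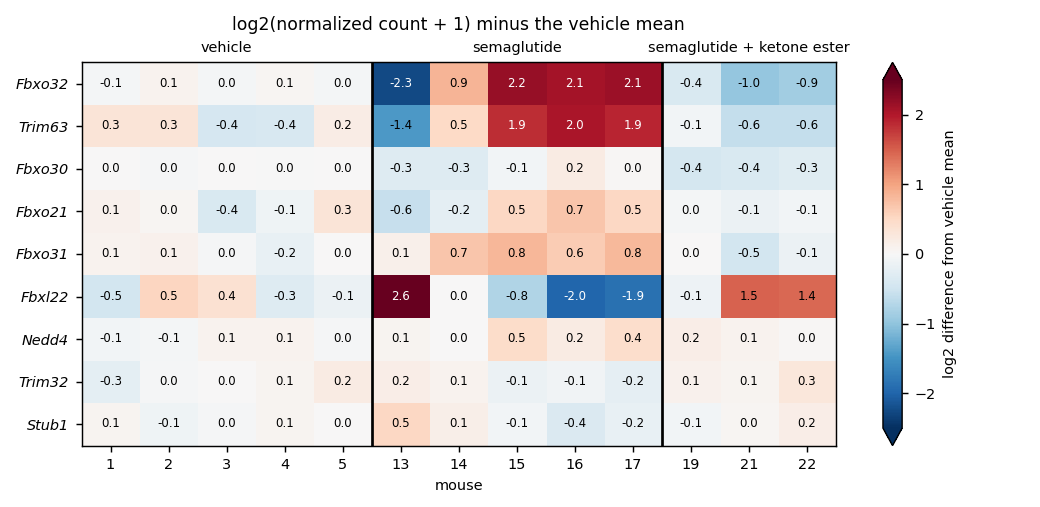
Difference of log2(normalized count + 1) from the vehicle mean for each ligase (rows) and mouse (columns, grouped by treatment; red higher, blue lower, number in each cell on the log2 scale). Mice 15 to 17 are high for Fbxo32, Trim63, Fbxo21 and Fbxo31 and low for Fbxl22, and mouse 13 shows the reverse for Fbxo32, Trim63, Fbxo21 and Fbxl22.

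Leaving out mouse 13, 4 of 9 members passed between semaglutide and vehicle, namely Fbxo32, Trim63, Fbxo31 and Nedd4, all higher, against 36.1% of all genes in that fit. For semaglutide + ketone ester against semaglutide 5 of 9 passed, with Fbxo32, Trim63, Fbxo30 and Fbxo31 lower and Fbxl22 higher, against 32.1% of all genes. Non-overlapping values were then found for Fbxo32, Trim63 and Fbxo31 in both comparisons, 3 of 9 against 29.4% and 36.5% of genes. In edgeR on the whole reads recovered from the table, with all 13 mice, the members that passed were again Fbxo32, Trim63 and Fbxo31, 3 of 9 in each comparison against 26.9% and 20.8% of genes. Its adjusted p for Fbxo32 was 0.034 between semaglutide and vehicle and 0.022 between semaglutide + ketone ester and semaglutide, and for Trim63 0.038 and 0.036.

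Fbxo30 encodes MUSA1, an F-box protein induced in denervated muscle when BMP signalling is blocked, and lies at chr10:11281330-11298052. The vehicle-treated mice were within 249 to 257 normalized counts, the tightest group of any member with a coefficient of variation of 1.18%. These values rest on 206 to 229 reads, where counting error alone is larger than this spread, so the tightness is not a property of the gene. The mice given the ketone ester had 154 to 172 reads. Semaglutide mice 13 to 17 had 203, 202, 243, 292 and 260, and semaglutide + ketone ester mice 187, 196 and 207. Every mouse given the ketone ester lay below every vehicle-treated mouse, with a log2 difference of -0.37 (SE 0.12, interval -0.62 to -0.12) that had an unadjusted p = 0.0079 but a limma adjusted p = 0.276. Against semaglutide alone the difference was -0.27 (SE 0.12, adjusted p = 0.120, limma) and, without mouse 13, -0.33 (adjusted p = 0.039). Semaglutide and vehicle differed by -0.10 (interval -0.32 to 0.12), or -0.04 without mouse 13, a sign that turned to 0.08 with equal totals.

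Fbxo21, which encodes the F-box protein SMART and lies at chr5:117976730-118010201, divided the semaglutide group. Mice 13 and 14 had 204 and 257 normalized counts and mice 15 to 17 had 434, 491 and 434, while vehicle mice 1 to 5 had 326, 313, 234, 282 and 380 and mice 19, 21 and 22 had 294, 273 and 291. The 3 highest semaglutide-treated mice thus lay above all others and the 2 lowest within or below the vehicle range. The differences were 0.19 (SE 0.23, interval -0.31 to 0.68) between semaglutide and vehicle and -0.27 (SE 0.26, interval -0.84 to 0.30) between semaglutide + ketone ester and semaglutide, or 0.37 and -0.46 without mouse 13, and neither passed in either case (limma adjusted p from 0.122 to 0.584).

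Fbxl22, an F-box protein of the sarcomere known to act on alpha-actinin and filamin C, lies at chr9:66508459-66514593 and ran opposite to Fbxo32 in most animals. Vehicle mice 1 to 5 had 41.2, 83.1, 74.2, 45.5 and 51.2 normalized counts. Semaglutide mice 13 to 17 had 357, 57.5, 33.3, 13.6 and 14.9, and mice 19, 21 and 22 had 52.2, 161 and 156. Mouse 13 was far above the other semaglutide-treated mice, and mice 15 to 17 lay below all vehicle-treated mice. These values rest on few reads, from 14 in mouse 16 to 369 in mouse 13. The log2 difference between semaglutide and vehicle was -0.39 (SE 0.73, interval -1.98 to 1.20, limma adjusted p = 0.728) over all mice, 0.69 in edgeR, and -1.15 (SE 0.46, adjusted p = 0.071) without mouse 13. With the ketone ester it was, against semaglutide alone, 1.33 (SE 0.85, adjusted p = 0.290) over all mice and 2.08 (SE 0.52, adjusted p = 0.011, limma) without mouse 13. Of its 3935 exon bases 317 are shared with Herc1 on the opposite strand, which was counted at a mean of 1944 normalized counts, and use of strand in the authors' counting is not stated.

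Among the HECT, U-box and remaining RING ligases, Nedd4 had the largest difference between semaglutide and vehicle, and it did not pass with all mice. It encodes a HECT ligase that binds proline-rich motifs through WW domains and lies at chr9:72662346-72749852. Vehicle mice had 8297, 8387, 9221, 9237 and 8536 normalized counts, semaglutide mice 13 to 17 had 9171, 8762, 11993, 10085 and 11777, and mice with the ketone ester had 9754, 9303 and 8875. Mice 15 to 17 were above every other animal, and mice 13 and 14 were inside the vehicle range. The difference between semaglutide and vehicle was 0.24 (SE 0.10, interval 0.02 to 0.45) with a limma adjusted p = 0.096, and 0.28 (adjusted p = 0.046) without mouse 13. That between semaglutide + ketone ester and semaglutide was -0.14 (SE 0.11, interval -0.39 to 0.10, adjusted p = 0.399), or -0.18 without mouse 13.

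Trim32 and Stub1 differed little between groups. Trim32, a RING ligase of thin filaments and desmin whose gene (chr4:65604986-65616238) lies within Astn2 on the opposite strand, ranged from 158 to 217 normalized counts under vehicle, 161 to 211 under semaglutide and 197 to 231 with the ketone ester. Its log2 differences were -0.04 (interval -0.27 to 0.19) between semaglutide and vehicle, 0.20 (interval -0.07 to 0.46) between semaglutide + ketone ester and semaglutide and 0.15 (interval -0.11 to 0.42) between semaglutide + ketone ester and vehicle, and the first became 0.13 and the second -0.04 with equal totals. Without mouse 13 the first was -0.09 (interval -0.32 to 0.13) and the second 0.25 (interval -0.01 to 0.50). Stub1 encodes CHIP, the U-box ligase that works with the chaperones Hsp70 and Hsp90, at chr17:25830505-25833404. It ranged from 1297 to 1474 normalized counts under vehicle and 1338 to 1566 with the ketone ester, while semaglutide mice 13 to 17 had 1997, 1550, 1345, 1095 and 1235. Mouse 13 was again at the far end, and mice 16 and 17 were below all vehicle-treated mice. The differences were 0.01 (interval -0.29 to 0.31) between semaglutide and vehicle and 0.04 (interval -0.31 to 0.38) between semaglutide + ketone ester and semaglutide, or -0.11 and 0.16 without mouse 13, and the second was -0.20 with equal totals. Of the exon bases of Stub1, 1084 are shared with Jmjd8 on the opposite strand, at a mean of 205 normalized counts. All 2561 lie inside the lincRNA gene Gm26694, also on the opposite strand, which was not counted.

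Between semaglutide + ketone ester and vehicle no member passed in limma, edgeR or DESeq2, while 0.236%, 0.366% and 1.46% of all genes did. In this comparison 1 member, Fbxo30, had an unadjusted p under 0.05 in limma, against 10.5% of genes. Values did not overlap for Fbxo32 and Fbxo30, 2 of 9 members against 11.3% of genes, and both were lower with the ketone ester. For Fbxo32 the means were 4249 ± 980 (SD, n = 3) and 7009 ± 331 (SD, n = 5), and the log2 difference was -0.74 (SE 0.80, interval -2.48 to 0.99, limma adjusted p = 0.841). The spread in that test includes the semaglutide group, and with these 2 groups alone the adjusted p was 0.062. For Trim63 the difference was -0.42 (interval -1.82 to 0.98), with mouse 19 inside the vehicle range and mice 21 and 22 below it.

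**Figure D3:**
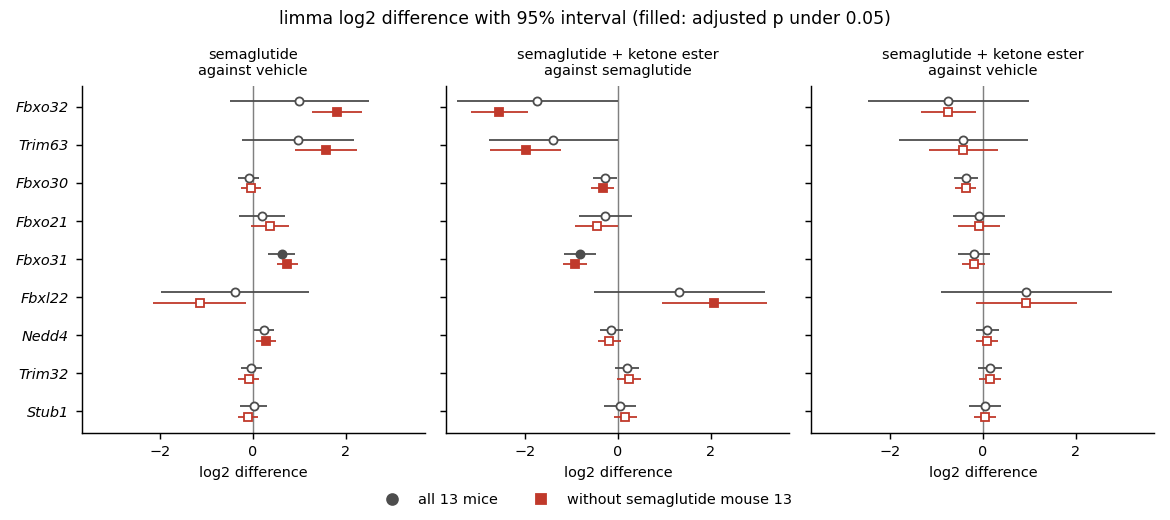
Log2 difference (x axis) of each ligase in the 3 comparisons, with its 95% interval from limma, over all 13 mice (circles) and without semaglutide mouse 13 (squares); filled symbols have an adjusted p under 0.05. With all mice the filled symbols are those of Fbxo31, at 0.61 and -0.81. Without mouse 13 Fbxo32 and Trim63 are filled as well in the same comparisons. Nedd4 is then also filled for semaglutide against vehicle, and Fbxo30 and Fbxl22 for semaglutide + ketone ester against semaglutide.

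Genes whose pattern over the 13 mice was nearest to that of Fbxo32 were ranked among 12302 others by the root mean square of the difference between centred log2 values, on which Fbxo32 itself varied by 1.26. Klhl38, which encodes a kelch-like protein, came first at 0.264, followed by Trim63 at 0.376, Retreg1 (a receptor for autophagy of the endoplasmic reticulum) at 0.509, Sesn1 (a sestrin) at 0.575 and Npc1 (a lysosomal cholesterol transporter) at 0.580. In mouse 13, Klhl38 had 122 normalized counts, against 596 to 850 under vehicle and 1151 to 2866 in mice 14 to 17. Nearest to Trim63 were Retreg1 at 0.310, Sesn1 at 0.329, Spsb1 at 0.360, Fbxo32 at 0.376 and Arrdc3 at 0.397. Among the other members, Fbxo31 was at rank 347 and Fbxl22 at rank 12228 for Fbxo32.

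Other parts of the ubiquitin pathway were read from lists set against the same test. The counts of each list stand beside the shares of all genes tested. Under semaglutide 11.9% were higher and 13.2% lower than under vehicle. With the ketone ester 9.09% were higher and 9.3% lower than under semaglutide. Without mouse 13, 2127 of 12320 genes were higher and 2320 lower in the first comparison, and 1961 higher and 1993 lower in the second. Of 3 genes encoding ubiquitin itself, 2 were higher under semaglutide than under vehicle and 1 was lower with the ketone ester than under semaglutide alone. Ubb, a polyubiquitin gene, rose from 14253 ± 640 to 22658.5 ± 5520 normalized counts (SD, n = 5 each; log2 difference 0.63, SE 0.15, limma adjusted p = 0.012) and was 13264.5 ± 1150 (n = 3) with the ketone ester (-0.74, adjusted p = 0.015), with differences of 0.78 and -0.88 without mouse 13. Rps27a, which encodes ubiquitin fused to a ribosomal protein, rose by 0.64 (SE 0.11, adjusted p = 0.0022, limma). The list median was 0.63, against -0.003 over all genes tested, and without mouse 13 the counts were 2 higher and, with the ketone ester, 3 lower.

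Among 28 other E3 ligases of muscle, 1 rose and 5 fell under semaglutide, against 11.9% and 13.2% of all genes, with a list median of -0.09. Those that fell included Trim55 (MuRF2; -0.64, SE 0.20, adjusted p = 0.034), a close relative of Trim63, and Fbxo40 (-0.49, SE 0.12, adjusted p = 0.013), an F-box ligase for the insulin substrate IRS1. Rnf123, a ligase also called KPC1, fell by 0.51 and was 0.81 higher with the ketone ester than under semaglutide alone (limma adjusted p = 0.0097 and 0.0031), and the HECT ligase Wwp1 fell by 0.46 (adjusted p = 0.012). With the ketone ester, 2 of the 28 were higher and 2 lower than under semaglutide. Without mouse 13, 4 rose and 6 fell under semaglutide, and 4 were higher and 6 lower with the ketone ester. Of 11 E1 and E2 enzymes, SCF core subunits and regulators, the E1 Uba6 and the E2 Ube2r2 fell under semaglutide and none rose, and with the ketone ester 1 was higher and 1 lower than under semaglutide (without mouse 13, 2 higher and 3 lower in the first comparison, and 1 higher and 2 lower in the second). Of 16 deubiquitinases, Usp2 (-0.70, adjusted p = 0.0063), Usp19 and Usp9x fell and none rose, and with the ketone ester 1 was higher and 1 lower (without mouse 13, none higher and 4 lower in the first comparison, and 2 and 3 in the second). No gene of these lists passed between semaglutide + ketone ester and vehicle.

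The upstream regulators of Fbxo32 and Trim63 moved in both directions. Of 27, 6 were higher and 5 lower under semaglutide, against 11.9% and 13.2% of all genes. With the ketone ester 2 were higher and 6 lower than under semaglutide, against 9.09% and 9.3%. Without mouse 13 these counts were 11 and 5, and 3 and 12. Akt1, the kinase that restrains FoxO, rose from 932 ± 73.1 to 2885 ± 702 normalized counts (log2 difference 1.59, SE 0.16, limma adjusted p = 1.3e-04) and was at 895 ± 24.0 with the ketone ester (-1.65, adjusted p = 9.8e-04). In mouse 13 it was 1751, above the vehicle level, and without that mouse the differences were 1.76 and -1.82. Foxo6, a FoxO factor of low abundance, fell from 58.7 ± 9.4 to 10.7 ± 5.16 (-2.44, SE 0.26, adjusted p = 1.6e-04) and was 96.1 ± 31.1 with the ketone ester (3.10, adjusted p = 8.0e-04), or -2.66 and 3.32 without mouse 13. Tnfrsf12a, the receptor of TWEAK, rose by 1.34 (SE 0.41, adjusted p = 0.033) and was 3.03 lower on the log2 scale with the ketone ester (difference -3.03, SE 0.48, adjusted p = 0.0025), or 1.6 and -3.29 without mouse 13. Smad3, which relays myostatin and TGF-beta signals, fell by 1.09 (adjusted p = 0.018). Between semaglutide + ketone ester and vehicle 2 of the 27 passed, against 0.236% of all genes, and they are named after their values were seen. Foxo1 was at 389 against 1742 normalized counts (-2.12, SE 0.32, limma adjusted p = 0.028), and the activin receptor gene Acvr2b was at 183 against 86.7 (1.11, SE 0.20, adjusted p = 0.047). Both also differed between semaglutide and vehicle. Foxo1 was at 813 under semaglutide (-1.03 against vehicle, limma adjusted p = 0.018), and the ketone ester differed from semaglutide by -1.09 (adjusted p = 0.033). Acvr2b was at 149 under semaglutide (0.81 against vehicle, limma adjusted p = 0.0059), and the ketone ester differed from semaglutide by 0.30 (adjusted p = 0.300).

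Transcripts of 22 known substrates of these ligases were also unevenly changed. Under semaglutide 4 were higher and 5 lower (median -0.34), against 11.9% and 13.2% of all genes. With the ketone ester 9 were higher and 3 lower than under semaglutide (median 0.44), against 9.09% and 9.3%. Without mouse 13 the counts were 4 and 8, and 10 and 3. Myod1, the myogenic factor, rose by 1.61 (SE 0.24, adjusted p = 0.0011), and the sarcomeric genes Myl1 and Tpm1 fell by 1.23 and 1.09 and the glycolytic Pkm by 0.94 (limma adjusted p from 0.0055 to 0.011). These are transcript levels, whereas a ligase acts on the protein. Of 18 chaperone and E2 partners of Stub1, 1 rose under semaglutide (Hsp90ab1, by 0.53) and 3 fell, among them Bag2, which fell by 0.77 on the log2 scale, with the chaperone Hspa1a and the E2 Ube2n the others (1 and 2 without mouse 13), and 1 was higher and 2 lower with the ketone ester than under semaglutide (2 and 7 without mouse 13). Of 8 denervation and disuse markers tested of 10, Gadd45a, Chrna1 and Runx1 rose by 1.40, 0.82 and 0.77 and Hdac9 fell by 1.07, and with the ketone ester 1 was higher and 1 lower (without mouse 13, 3 and 1, and then 1 and 2). No gene of these 3 lists passed between semaglutide + ketone ester and vehicle. Without mouse 13, 3 of the 18 partners of Stub1 were lower there, while 0.625% of all genes passed in that fit in either direction.

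**Figure D4:**
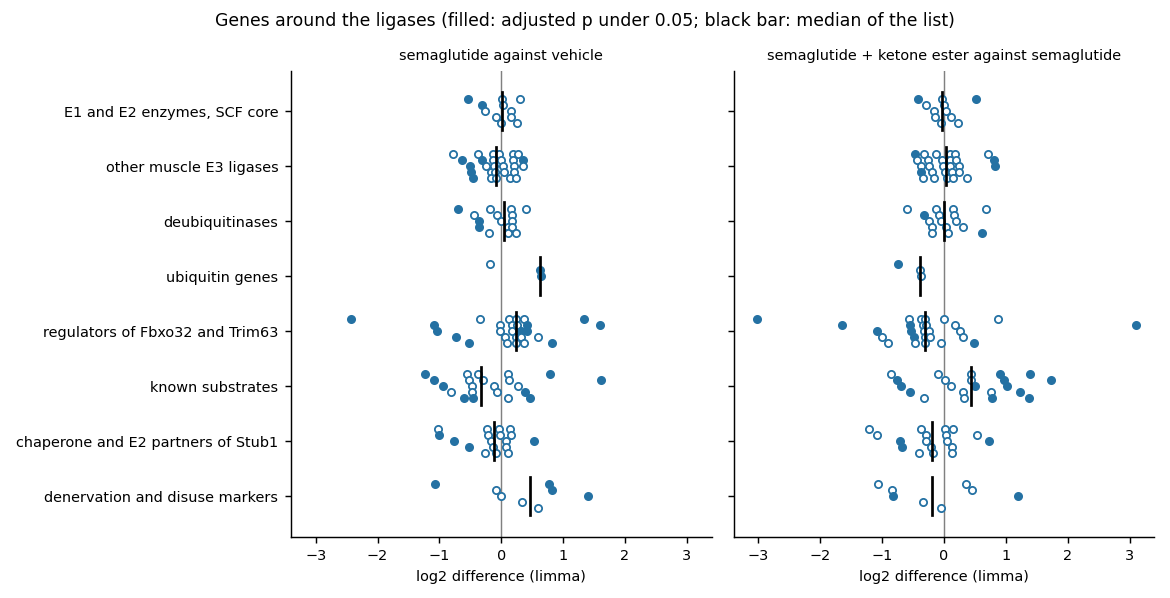
Log2 difference from limma (x axis) of every tested gene in the 8 pathway lists (rows), for semaglutide against vehicle and for semaglutide + ketone ester against semaglutide; filled circles have an adjusted p under 0.05 and the black bar is the median of the list. The ubiquitin genes lie mostly to the right in the first panel, with a median of 0.63, and the regulators spread to both sides, from Foxo6 at -2.44 to Akt1 at 1.59.

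Cell type markers moved with the same comparisons. Of 10 myofibre markers, 1 rose (Des, named after its values were seen) and 4 fell (Mb, Pvalb, Myh4 and Acta1) under semaglutide. With the ketone ester 6 were higher and 1 lower than under semaglutide. Without mouse 13 these counts were 1 and 5, and 7 and 1. Most of these markers, Des, Myh4 and Acta1 among them, are also on the list of substrates, so the counts of both lists overlap. The shares of all genes given for the pathway lists apply to the marker lists too. Of 7 fibroblast and tendon markers, 5 fell under semaglutide, among them Col1a1 from 1472 ± 483 to 199 ± 142 normalized counts, and 4 were higher and 1 lower with the ketone ester (5, and 4 and 1, also without mouse 13). Their sums were 5212 to 11949 under vehicle, 4755 to 6576 under semaglutide and 6810 to 11187 with the ketone ester. No blood marker passed between semaglutide and vehicle (all 5 were lower without mouse 13), and 4 of 5 were higher with the ketone ester than under semaglutide, as were 2 of 5 endothelial markers (5 and 3 without mouse 13). No tested adipocyte, immune, Schwann or satellite cell marker passed in any comparison, although the adipocyte sum reached 19743 in 1 semaglutide-treated mouse against 3380 to 7084 under vehicle. Of the immune markers 5 of 7 were tested, and of the satellite cell markers 2 of 3. No marker of these lists was at 0 throughout a group, and none passed between semaglutide + ketone ester and vehicle. Their part in the ligase values was not tested.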

How the data were processed

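RNA from gastrocnemius of 13 mice was sequenced as stranded mRNA libraries. The authors used DRAGEN for alignment to mm10, and the table they deposited gives normalized counts by gene. DESeq2 is named in the submitters' processing notes, and the gene annotation and use of strand are not given in the sources used here. In each deposited signal column every value was an integer times the value of 1 read, and 100% of values came out whole (tolerance 0.01), which gave back the reads. Genes with a mean of at least 10 (12303) were tested on log2(normalized count + 1) with limma 3.58.1 in R 4.3.3, all 3 groups in the model and Benjamini-Hochberg adjustment, in place of the study's per-gene analysis across groups. The pseudocount of 1 understates changes of low genes. edgeR 4.0.16 and DESeq2 1.42.0 on recovered reads were alternatives, as were other scalings, filters, pseudocounts and weights and leaving out each mouse. The scripts were tested on simulated data. At these depths 3 reads are 1.28e-05% to 1.96e-05% of a library, counting error only. Exon lengths are from GENCODE M21 (GRCm38). The members and gene lists were chosen with earlier results of these data known. Genes outside the members were named by rule, at most 4 per list, as those that passed between semaglutide and vehicle with the greatest log2 difference, and those nearest in pattern to Fbxo32 and Trim63. Des, Foxo1 and Acvr2b fall outside the rule. All sample titles begin with the same prefix, and the sample fields used here name no batch. A gene of the ubiquitin list is not reported here.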

Additional observations from a re-analysis of the deposited data

Results flagged for a closer look

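In a test for a sample far from its group (Dixon's, critical value 0.71 for 5 samples), 1 of 18 groups of 5 mice was flagged among the 9 ligases. Chance flags about 1 in 20 groups. The test used normalized counts and not the log2 values of the group tests, and which ligase is flagged depends on that scale. The flagged value was Fbxl22 in semaglutide mouse 13, with 357 normalized counts against 13.6 to 57.5 in the other semaglutide-treated mice, a gap of 0.872 of the range of the group. Fbxo32 and Trim63 in the same mouse, at 1460 and 1206 normalized counts, were not flagged, since mouse 14 lay between it and the rest of the group.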

How the results depend on the processing

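Fbxo31 passed in both comparisons with semaglutide under every alternative run. The number of members that passed between semaglutide and vehicle, 1, was 2 with equal totals, 2 with quantile normalization, 4 with weights per mouse, 3 in edgeR and 4 in DESeq2, and 1 to 4 when a mouse was left out (4 without mouse 13, 2 without mouse 14). The shares of all genes that passed were 34.1%, 25.8%, 39.4%, 26.9% and 29.2%, and 16.8% to 36.1%. Between semaglutide + ketone ester and semaglutide it was 3 with equal totals, 5 with weights, 3 in edgeR and 3 in DESeq2, and 1 to 5 when a mouse was left out, with 34.1%, 34.8%, 20.8% and 23.9% of all genes, and 7.01% to 32.1%. Between semaglutide + ketone ester and vehicle it was 0, and 1 (Fbxo30) with weights, against 1.67% of genes. Members without overlap between semaglutide and vehicle numbered 2 with equal totals and 1 to 3 with a mouse left out, between semaglutide + ketone ester and semaglutide 3 with equal totals and 1 to 3, and between semaglutide + ketone ester and vehicle 2 to 4 (4 without mouse 19).

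Equal totals moved the median of all genes to 0.17 for semaglutide against vehicle and to -0.24 for semaglutide + ketone ester against semaglutide. Under it Fbxo30 was 0.0768 and Trim32 0.13 against vehicle, both below that shift, and Trim32 was -0.0402 and Stub1 -0.20 between semaglutide + ketone ester and semaglutide, both above it, while Stub1 was -0.0166 between semaglutide + ketone ester and vehicle. Fbxl22 was 0.69 in edgeR between semaglutide and vehicle and Stub1 was -0.0614 with weights. With a mouse left out, the same comparison ranged from -1.15 to 0.00756 for Fbxl22, from -0.11 to 0.00816 for Trim32 and from -0.11 to 0.10 for Stub1, which ranged from -0.0562 to 0.16 between semaglutide + ketone ester and semaglutide and from -0.00976 to 0.10 against vehicle. The cause of these changes was not tested. Fbxl22 had no adjusted p in DESeq2 and was not tested at a mean of at least 100. No paired analysis was possible because the labels give no pairing between mice of different groups. Depth limits Fbxl22 most, with 14 to 369 reads.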
